A study of Mus musculus with 8 samples.

Results

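The variable segments of the immunoglobulin kappa light chain (Igkv segments) were examined in RNA from mouse bone-marrow plasma cells. Members were all genes of the count table whose mouse symbol starts with Igkv and whose counts, summed over the 8 libraries, came to at least 80. This kept 102 of 103 Igkv symbols, out of 27179 genes in the table and 261 immunoglobulin genes. The symbol left out, Igkv13-71-1, had a total of 1 count, while the least counted members, Igkv1-35 and Igkv8-26, had 2949 and 3032. All 102 are annotated as V segments in RefSeq GRCm38.p6, and all passed the filter on low counts, so none is missing from any fit.

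Plasma cells were sorted from bone marrow of C57BL/6 mice as Blimp1-GFP+CD138+ cells, that is, by a green fluorescent reporter of Prdm1, the gene of the transcription factor Blimp1, and by the surface protein CD138. Batch 1 held wild-type (WT) replicates 1 and 2 and both Blimp1-/- libraries (Blimp1KO), and batch 2 held WT replicates 3 and 4 and both Xbp1-/- libraries (Xbp1KO). Blimp1 is the factor that drives B cells into plasma cells and represses B cell genes, and XBP1 is a factor of the unfolded protein response that equips secretory cells. Each knockout was therefore compared with the 2 WT libraries of its own batch. All groups share the strain, tissue and sort, so every library comes from cells with reporter signal, the knockouts included. The age and sex of the mice, the deleted exons and the means of deletion are not given in the sources used here, nor is it stated what separates the batches beyond the label. Replicates are called biological in the series' design text, but whether a library pools several mice is not given, so p-values measure the spread between these libraries.

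A kappa light chain is built from a V segment, which encodes most of its variable domain, a short joining (Igkj) segment and the constant exon Igkc. In a developing B cell the RAG recombinase joins a single V segment to a J segment, by deletion or by inversion depending on the segment's orientation, and the rearranged gene is then transcribed from the V segment's own promoter under the kappa enhancers. A plasma cell is the descendant of a selected B cell clone and transcribes its rearranged kappa gene at a very high rate. The mix of V segments in sorted cells is therefore a readout of which clones are there and of how much light chain mRNA each makes. In bulk RNA, fewer cells using a segment and less RNA per cell cannot be told apart.

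Library totals lay between 44012152 and 145411827 counts, with 2621495 to 16168353 on Igkv segments. Prdm1 had 301 and 306 CPM (counts scaled to library size, with sizes adjusted by TMM, the trimmed mean of M-values) in batch 1 WT and 243 and 176 CPM in Blimp1KO. Xbp1 had 2129 and 2202 CPM in batch 2 WT and 1302 and 1105 CPM in Xbp1KO. Neither difference passed edgeR's quasi-likelihood test (adjusted p = 0.401 and 0.0939), and with the deleted exons not given, whole-gene counts do not check the labels. Plasma cell markers, 10 genes with Prdm1, Xbp1, Irf4 and the J chain gene among them, were summed in CPM. In batch 1 Xbp1 had 1371 to 3008 CPM, Prdm1 176 to 306 and Irf4 315.5 to 491, a small part of the sums. The J chain gene, counted with the immunoglobulin genes below, is in the sums, so they do not measure plasma cells apart from antibody transcripts. The sums ran from 110700 to 119100 in batch 1 WT, 59010 to 72590 in Blimp1KO, 50410 to 68160 in batch 2 WT and 32770 to 40870 in Xbp1KO. The sums of 10 mature B cell markers were 531 to 575, 970 to 1329, 424 to 490 and 714 to 786 CPM in the same order. Myeloid markers summed to 286 to 520 CPM in batch 1, 13.0 to 539 CPM in batch 2 WT and 44.0 to 1278 CPM in Xbp1KO. Erythroid markers summed to 21.6 to 224 CPM in WT and Blimp1KO and to 7.09 to 724 CPM in Xbp1KO, with the highest value of each group in its second library. T and NK cell markers summed to 29.6 to 39.0 CPM in batch 1 WT, 29.6 to 56.9 in Blimp1KO, 20.2 to 23.6 in batch 2 WT and 34.9 to 39.3 in Xbp1KO. B progenitor markers summed to 156 to 190.1, 82.5 to 90.4, 153 to 192 and 125 to 180.0 CPM in that order, Blimp1KO being below all others. No marker of any list was at 0 in every library, Cd3d, Cd3e, Cd8a, Klrb1c and Vpreb2 were below 1 CPM in all, and the part of other cells in the Igkv results was not tested.

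The members lie on chromosome 6 over 3148.5 kb (GRCm38, chr6:67555636-70704177), from 18.39 kb to 3166.3 kb away from the joining segment Igkj1. Of the 102, 37 are on the forward strand, 64 on the reverse strand and 1, Igkv8-23-1, has no entry in the GENCODE M21 annotation used for orientation. Symbols divide them into 20 families by sequence, of which Igkv4, with 28 segments, is the largest. Many members are close copies. Among 99 with a GENCODE coding sequence, the median identity to the nearest other member was 94.52%, 16 had a neighbour at 97% or more, and a median of 77.59% of a segment's 50-base words occurred in no other member. The multi-mapping setting behind the counts is not given in the sources used here, so how reads common to near-identical segments were assigned is uncertain. Reads from hypermutated genes, which differ from the germline reference, add to this uncertainty.

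Stretches of 300 bases from the coding sequences of the segments on which the results turn are shown here, read from the GENCODE M21 transcripts of GRCm38, 5′ to 3′ on the coding strand, the leader exon being followed by the V exon. The first pair, Igkv1-117 (chr6:68121046-68121827, forward strand) and Igkv1-110 (chr6:68270485-68271267, forward strand), had the highest mean usage over the 8 libraries, usage being a segment's percentage of the Igkv counts, and moved in opposite directions in Xbp1KO as a share of kappa counts. Bases 47 to 346 of 359 are printed, and capitals mark the 10 bases at which they differ, an identity of 97.21%.
Igkv1-117: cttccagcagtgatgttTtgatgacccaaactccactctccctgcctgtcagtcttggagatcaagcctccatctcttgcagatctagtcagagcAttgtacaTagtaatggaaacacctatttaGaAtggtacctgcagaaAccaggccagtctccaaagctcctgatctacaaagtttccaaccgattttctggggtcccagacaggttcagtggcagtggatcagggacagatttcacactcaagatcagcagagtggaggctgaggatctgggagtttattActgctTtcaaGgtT
Igkv1-110: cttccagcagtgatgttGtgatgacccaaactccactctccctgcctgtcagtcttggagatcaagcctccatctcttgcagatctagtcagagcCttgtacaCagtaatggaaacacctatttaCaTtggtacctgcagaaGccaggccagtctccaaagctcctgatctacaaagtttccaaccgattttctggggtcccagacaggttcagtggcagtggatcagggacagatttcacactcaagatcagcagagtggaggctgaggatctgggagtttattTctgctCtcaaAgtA
The Igkv10-94 (chr6:68704508-68704978, reverse strand) and Igkv10-95 (chr6:68680379-68680848, forward strand) sequences are shown because both were lower in Xbp1KO in every fit that left out a library. Bases 1 to 300 of 347 are printed, and capitals again mark the 10 bases that differ, an identity of 97.12%.
Igkv10-94: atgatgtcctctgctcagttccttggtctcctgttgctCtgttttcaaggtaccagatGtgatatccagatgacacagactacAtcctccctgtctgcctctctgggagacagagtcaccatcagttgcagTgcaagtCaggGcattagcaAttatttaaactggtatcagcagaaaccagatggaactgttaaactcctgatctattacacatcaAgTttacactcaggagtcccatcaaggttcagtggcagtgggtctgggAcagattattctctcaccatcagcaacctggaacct
Igkv10-95: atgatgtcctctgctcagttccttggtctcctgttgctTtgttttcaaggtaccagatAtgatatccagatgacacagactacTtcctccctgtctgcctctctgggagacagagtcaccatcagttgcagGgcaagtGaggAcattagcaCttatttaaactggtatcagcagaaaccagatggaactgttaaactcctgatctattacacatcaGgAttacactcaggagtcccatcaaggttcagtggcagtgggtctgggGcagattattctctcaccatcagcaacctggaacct
Igkv15-103 (chr6:68437440-68437925, forward strand) and Igkv5-48 (chr6:69726573-69727138, reverse strand) had the largest gain and the largest loss of usage in Xbp1KO. Bases 1 to 300 of 347 are printed, and here the capitals mark the leader exon of 49 bases.
Igkv15-103: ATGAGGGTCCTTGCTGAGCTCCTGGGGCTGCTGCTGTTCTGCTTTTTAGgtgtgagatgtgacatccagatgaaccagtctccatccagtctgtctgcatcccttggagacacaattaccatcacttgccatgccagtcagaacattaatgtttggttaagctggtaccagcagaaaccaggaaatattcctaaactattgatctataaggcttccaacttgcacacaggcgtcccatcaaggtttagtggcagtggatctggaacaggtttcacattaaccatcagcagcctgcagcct
Igkv5-48: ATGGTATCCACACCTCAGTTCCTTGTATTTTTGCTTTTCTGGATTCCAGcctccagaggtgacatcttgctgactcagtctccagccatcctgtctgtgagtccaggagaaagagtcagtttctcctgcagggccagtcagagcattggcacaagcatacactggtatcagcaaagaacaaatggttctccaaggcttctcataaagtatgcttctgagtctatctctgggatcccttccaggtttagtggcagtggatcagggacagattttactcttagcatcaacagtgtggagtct

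Igkv segments made up a smaller part of the transcriptome in both knockouts. They took 12.5% and 12.8% of all counts in batch 1 WT and 9.001% and 10.7% in Blimp1KO, or 12.6% ± 0.163 against 9.85% ± 1.21 (SD, n = 2 each). In batch 2 they took 11.1% and 10.6% in WT and 7.50% and 5.96% in Xbp1KO, or 10.9% ± 0.357 against 6.73% ± 1.09. Both knockout libraries lay below both WT libraries in each batch, and the ratio of the means was 0.779 in Blimp1KO and 0.619 in Xbp1KO. The exact 2-sided permutation p was 0.333 in both cases, the smallest that 2 against 2 libraries allow, and that limit holds for every share below. Counting error was small against this spread, since the widest 95% Wilson interval of a share spanned 0.0147 percentage points. Intervals cover counting error only, as reads carry no molecular identifiers.

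**Figure D1:**
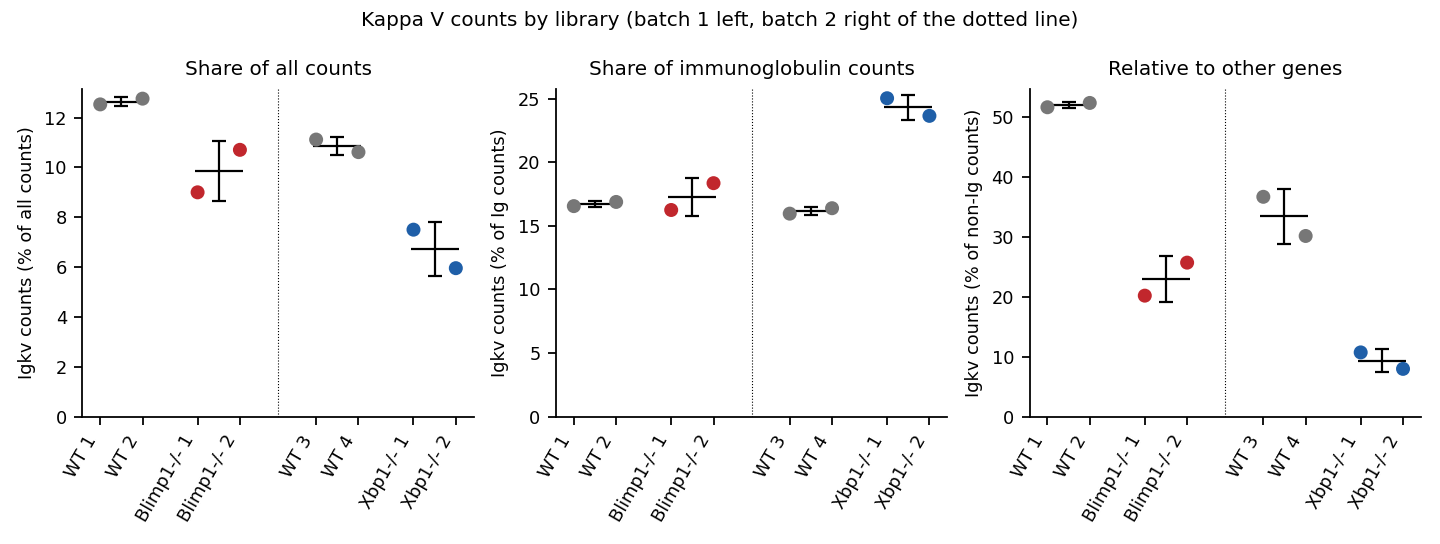
Igkv counts in each library as a percentage of all counts, of immunoglobulin counts and of counts outside immunoglobulin genes (y axes, percent); points are libraries, and bars are group means ± SD (n = 2). Both knockouts lie below WT of their batch in the first and the last panel, and Xbp1KO, at 25.02% and 23.6%, lies above all other libraries in the middle panel.

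Relative to all immunoglobulin genes, J chain included, the knockouts gave different values. Igkv segments took 16.5% and 16.9% of immunoglobulin counts in batch 1 WT and 16.2% and 18.3% in Blimp1KO, and these groups overlapped (difference 0.586 percentage points, exact permutation p = 1.0). They took 16.0% and 16.4% in batch 2 WT and 25.02% and 23.6% in Xbp1KO, a ratio of 1.51 between means of 16.2% ± 0.302 and 24.3% ± 0.980 (exact permutation p = 0.333). The difference of 8.17 percentage points became 14.2 with the J chain gene left out of the sum. All immunoglobulin genes together took 69.7% and 64.8% of counts in these WT libraries and 30.0% and 25.2% in Xbp1KO. Set against the counts outside immunoglobulin genes, Igkv counts amounted to 51.7% and 52.4% in batch 1 WT, 20.2% and 25.7% in Blimp1KO, 36.7% and 30.2% in batch 2 WT and 10.7% and 7.96% in Xbp1KO. On that base the ratio of knockout to WT was 0.441 for Blimp1 and 0.279 for Xbp1, with no overlap (exact permutation p = 0.333 each).

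Igkc, the constant exon to which every rearranged kappa V segment is spliced, was set beside the V segments. The ratio of Igkv counts to Igkc counts was 0.730 and 0.801 in batch 1 WT, 0.754 and 0.699 in Blimp1KO, 0.726 and 0.864 in batch 2 WT and 0.881 and 0.933 in Xbp1KO. Blimp1KO overlapped its WT libraries (exact permutation p = 0.667) and Xbp1KO lay above its own by less than the gap between those 2 (exact permutation p = 0.333). Per base of gene length the ratio ran from 0.635 to 0.846 over the 8 libraries. Igkc held 94.8% to 96.1% of the constant-region light chain counts in WT and Blimp1KO and 88.8% and 85.2% in Xbp1KO, the remainder being the lambda constant genes.

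Nearly every segment was counted in every library, although reads of close copies may be among these counts. A read was counted for all 102 in 7 libraries and for 101 in Xbp1KO replicate 2, where Igkv20-101-2 had none, which allows up to 0.000114% of that library's Igkv counts. Usage was uneven. Between 10 and 16 segments held 50% of the counts and 43 to 50 held 90%, and 29 to 36 segments had a usage above 1%. The effective number of segments, the exponential of the Shannon entropy of usage, was 48.2 and 53.9 in batch 1 WT, 53.4 and 55.6 in Blimp1KO, 47.0 and 42.7 in batch 2 WT and 47.3 and 49.3 in Xbp1KO. Blimp1KO overlapped its WT group (difference 3.45, exact permutation p = 0.667), and Xbp1KO lay above its own (difference 3.49, exact permutation p = 0.333) but inside the range of the other libraries. The inverse Simpson index, which weighs the leading segments more, ran from 27.1 in WT replicate 4 to 42.7 in Blimp1KO replicate 2. By the effective number, the mean of neither knockout was below that of WT of its batch.

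The leading segment differed between libraries, also within a group. Igkv6-23 led in WT replicate 1 at 5.99% of Igkv counts, Igkv5-43 in replicate 2 at 4.46%, Igkv5-48 in replicate 3 at 10.2% and Igkv5-39 in replicate 4 at 8.76%. Both Blimp1KO libraries were led by Igkv10-96, at 5.71% and 4.99%, and both Xbp1KO libraries by Igkv15-103, at 7.12% and 6.45%. In all, 29 segments were among the first 10 of at least 1 library. Igkv1-117 was among them in all 8 libraries, Igkv1-110 in 7, Igkv10-96 in 6 and Igkv8-30 in 5. Genes ran from 211 to 453 bases, and dividing counts by length left the 10 leading segments and their order the same except that ranks 2 and 3 traded places.

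Igkv1-117 had the highest mean usage, 4.71% over the 8 libraries. It took 4.98% and 4.23% in batch 1 WT, 3.81% and 4.93% in Blimp1KO, 6.12% and 6.56% in batch 2 WT and 3.92% and 3.13% in Xbp1KO. Blimp1KO overlapped its WT group, and Xbp1KO lay below its own. Igkv1-110, its near-copy, took 3.22% and 4.24%, 3.45% and 3.61%, 2.99% and 3.04%, and 5.05% and 5.81% in the same order. It was thus higher in Xbp1KO than in all 6 other libraries. Igkv10-96 took 5.33% and 3.13%, 5.71% and 4.99%, 4.14% and 3.88%, and 1.78% and 2.22%, the lowest values being the Xbp1KO ones. Igkv15-103, the only segment of its family, took 2.05% and 2.42% in batch 1 WT, 4.64% and 2.60% in Blimp1KO, 2.00% and 2.15% in batch 2 WT and 7.12% and 6.45% in Xbp1KO. Both knockouts lay above their WT groups, Xbp1KO by 4.71 percentage points and Blimp1KO by 1.39, which was 0.37 without Blimp1KO replicate 1 and 2.41 without replicate 2. Igkv8-30 took 3.34% and 2.22%, 3.20% and 4.39%, 2.33% and 2.31%, and 4.91% and 5.49%, with Xbp1KO again above its WT libraries and Blimp1KO overlapping them.

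**Figure D2:**
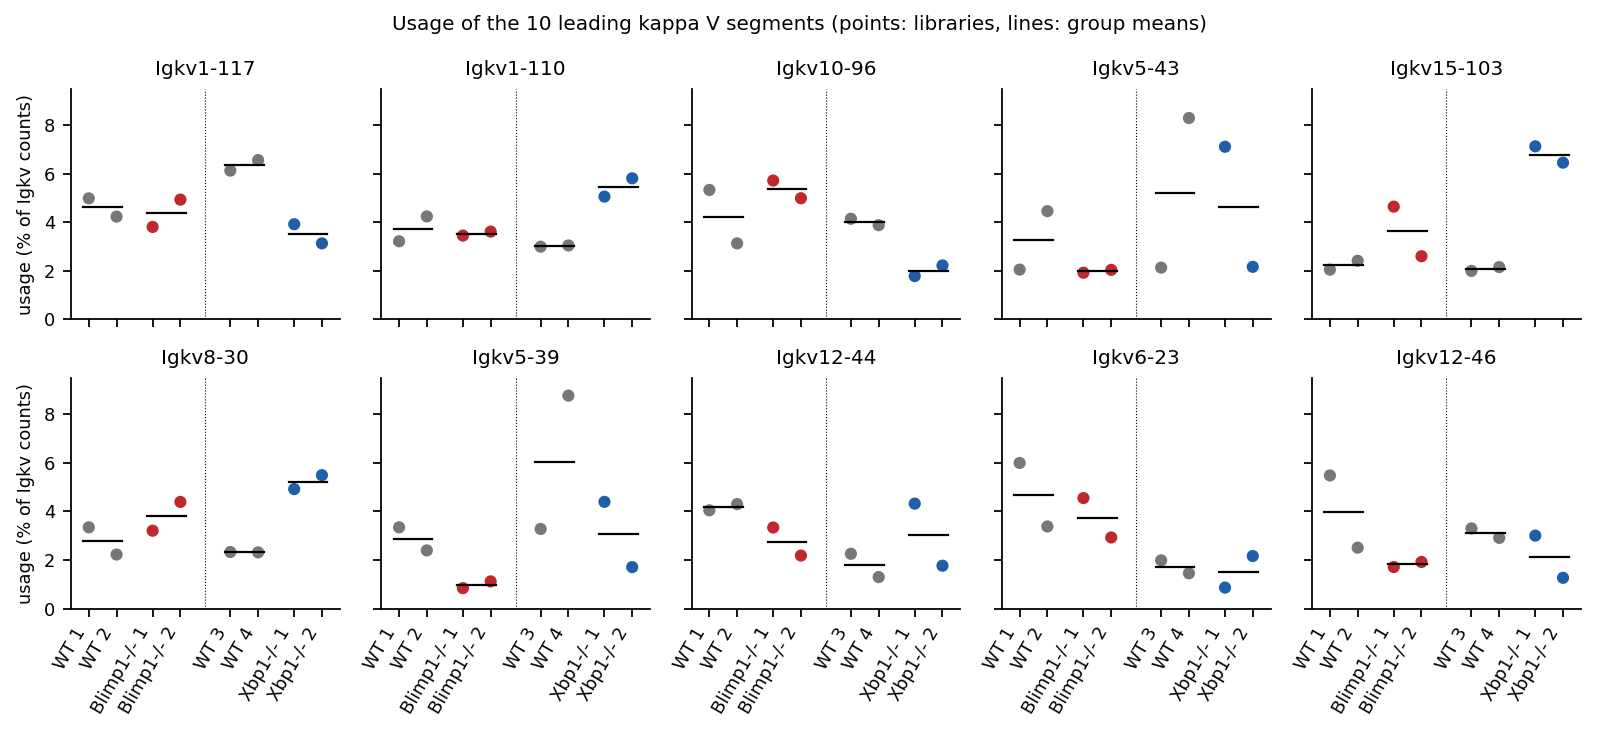
Usage (y axis, percent of the library's Igkv counts) of the 10 segments with the highest mean usage; points are libraries and short lines are group means (n = 2). Igkv15-103, Igkv1-110 and Igkv8-30 are highest in Xbp1KO, while Igkv5-43 differs as much between libraries of a group as between groups. Igkv5-39 does so among Xbp1KO and the WT libraries of its batch, but is lower in Blimp1KO than in WT of that batch, without overlap.

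Of the remaining leading segments, Igkv5-43 and Igkv5-39 differed widely within groups. Igkv5-43 took 2.05% and 4.46% in batch 1 WT and 2.13% and 8.29% in batch 2 WT, with 1.92% and 2.04% in Blimp1KO and 7.11% and 2.17% in Xbp1KO. Igkv5-39 took 3.27% and 8.76% in the WT libraries of batch 2 and 4.39% and 1.70% in Xbp1KO. In batch 1 its usage was 3.34% and 2.39% in WT and 0.838% and 1.12% in Blimp1KO, with no overlap. Igkv12-44 took 4.04% and 4.30% in batch 1 WT and 3.33% and 2.18% in Blimp1KO, again with no overlap, and 2.25% and 1.29% in batch 2 WT and 4.32% and 1.76% in Xbp1KO, which overlapped. Igkv12-46 was also lower in Blimp1KO without overlap, as given below, and took 3.296% and 2.91% in batch 2 WT and 3% and 1.26% in Xbp1KO, which overlapped. Igkv6-23 took 5.99% and 3.38% in batch 1 WT and 4.54% and 2.92% in Blimp1KO, above the 1.98% and 1.45% of batch 2 WT and the 0.862% and 2.16% of Xbp1KO, and each knockout overlapped WT of its batch.

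The 5 largest differences in mean usage of each knockout were of unequal standing. In Blimp1KO they were those of Igkv4-55 (-2.51 percentage points), Igkv12-46 (-2.18), Igkv5-39 (-1.89), Igkv8-21 (1.70) and Igkv5-45 (-1.57). Igkv4-55 took 4.43% and 2.74% in batch 1 WT and 1.22% and 0.927% in Blimp1KO, and without WT replicate 1 the difference was -1.66. Igkv12-46 took 5.48% and 2.50% against 1.71% and 1.92%, with a difference of -0.692 without WT replicate 1. The last 2 of the 5 came from a single library each, since Igkv8-21 was at 3.88% in Blimp1KO replicate 2 and between 0.239% and 0.763% in all others, and the Igkv5-45 difference was 0.0273 without WT replicate 2, where that segment reached 3.49%. Without Blimp1KO replicate 2 the Igkv8-21 difference was -0.0365.

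In Xbp1KO the 5 were Igkv5-48 (-5.31), Igkv15-103 (4.71), Igkv12-98 (-3.86), Igkv5-39 (-2.97) and Igkv10-94 (-2.91). WT replicate 3 carried the differences of Igkv5-48 and Igkv12-98. Igkv5-48 took 10.2% there and 1.32% in WT replicate 4, against 0.541% and 0.346% in Xbp1KO, and the difference was -0.878 without WT replicate 3. Igkv12-98 took 7.97% there and 0.181% in WT replicate 4, against 0.243% and 0.191% in Xbp1KO, and the difference became 0.0358 without it. The Igkv5-39 difference shrank to -0.226 when WT replicate 4 was left out and to -1.63 when Xbp1KO replicate 2 was, and it grew to -5.71 with WT replicate 3 left out. Igkv10-94 took 2.61% and 5.17% in WT and 1.06% and 0.898% in Xbp1KO, with a difference of -1.63 without WT replicate 4. By contrast, the Igkv15-103 difference stayed between 4.37 and 5.05 whichever of the 4 libraries was left out.

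By family, Igkv4 took 16.3% and 24.4% of Igkv counts in batch 1 WT, 18.0% and 18.4% in Blimp1KO, 13.7% and 24.0% in batch 2 WT and 15.2% and 20.4% in Xbp1KO. It overlapped between groups and stayed below its 27.45% of the segments throughout. Igkv1, with 10 segments, stayed within a narrow range, at 9.77% to 12.1% in the 8 libraries, although Igkv1-117 and Igkv1-110 within it exchanged shares. Igkv8, with 11 segments, took 8.01% and 9.40% in batch 1 WT, 8.32% and 12.2% in Blimp1KO, 6.17% and 5.82% in batch 2 WT and 11.99% and 16.2% in Xbp1KO. The mean was 5.99% ± 0.242 in batch 2 WT and 14.1% ± 2.95 in Xbp1KO (SD, n = 2 each, exact permutation p = 0.333).

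Igkv10, with 3 segments, went the other way, from 7.38% and 9.74% in batch 2 WT to 3.23% and 3.44% in Xbp1KO, a mean difference of -5.23 percentage points (exact permutation p = 0.333). In batch 1 it overlapped, at 7.10% and 4.24% in WT and 8.83% and 7.03% in Blimp1KO. Igkv5, with 5 segments, took 6.62% and 12.02% in batch 1 WT, 5.11% and 6.44% in Blimp1KO, 16.0% and 19.3% in batch 2 WT and 13.2% and 5.50% in Xbp1KO. Its means were lower by 3.54 points in Blimp1KO and by 8.32 points in Xbp1KO, with no overlap in either. Both values moved with single libraries: the Blimp1KO difference was -0.844 when WT replicate 2 was left out and -6.24 when WT replicate 1 was, and the Xbp1KO difference was -4.50 without Xbp1KO replicate 2. Igkv12 took 11.9% and 8.76% against 7.55% and 7.05% in batch 1, and 15.05% and 4.98% against 10.4% and 7.399% in batch 2, where it overlapped. Igkv3 and Igkv6 overlapped between knockout and WT in both batches. With exact p-values of 0.333 at best over 20 families and 2 knockouts, no family difference could pass a correction.

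**Figure D3:**
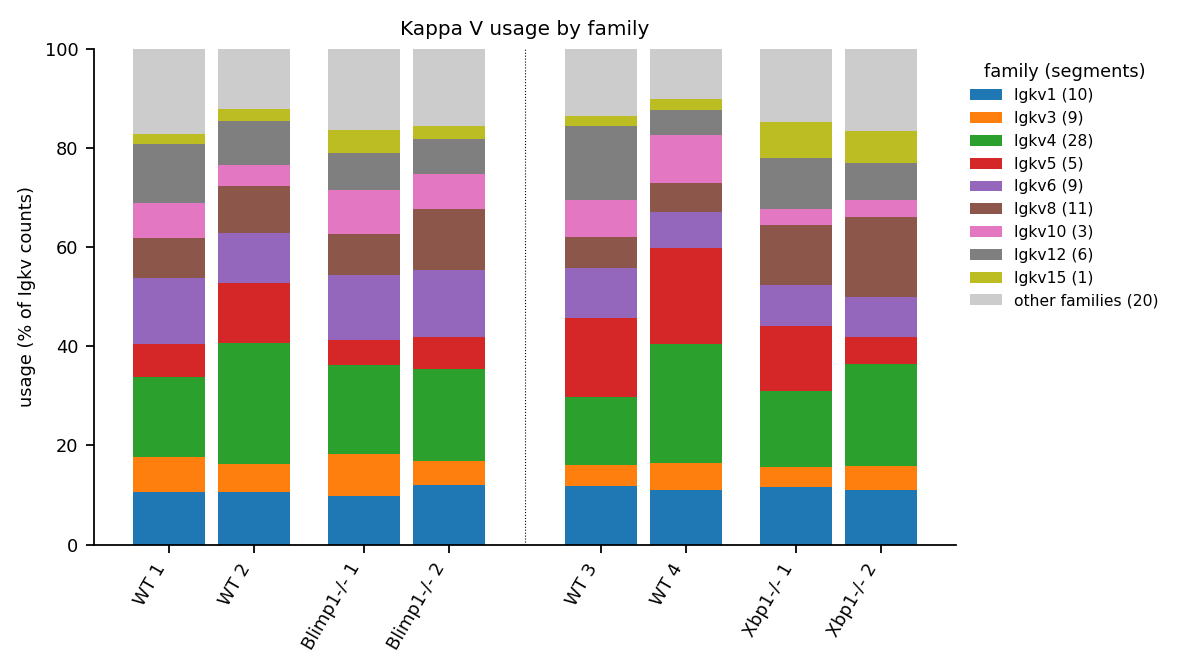
Usage by family (y axis, percent of the library's Igkv counts), stacked for each of the 8 libraries; the 9 families with at least 5% in any group are coloured and the others, 20 segments, are summed. The Igkv8 band is wider in Xbp1KO (11.99% and 16.2%) than in batch 2 WT (6.17% and 5.82%), and the Igkv10 band is narrowest in Xbp1KO (3.23% and 3.44%).

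Position in the locus and orientation played no part in the choice of members. The 34 segments within 800 kb of Igkj1 took 28.4% and 25.6% of Igkv counts in batch 1 WT, 30.0% and 31.2% in Blimp1KO, 20.6% and 18.6% in batch 2 WT and 24.5% and 29.7% in Xbp1KO. Both knockouts were above the WT libraries of their batch. The 27 segments at 800 kb to 1600 kb, which include Igkv5-39, Igkv5-43 and Igkv5-48, took 31.5% and 42.2%, 26.7% and 28.8%, 33.7% and 44.8%, and 35.8% and 22.8%. The 22 segments at 1600 kb to 2400 kb took 16.2% and 14.0%, 23.5% and 18.7%, 26.3% and 19.1%, and 19.3% and 29.5% in the same order. There Blimp1KO lay above its WT libraries and Xbp1KO overlapped its own. The 19 segments beyond 2400 kb stayed between 17.5% and 23.8% in the 8 libraries. The 64 reverse-strand segments, 62.75% of the members, took 60.8% to 70.0% of Igkv counts.

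Libraries of a group shared no more than part of their usage. The usage common to a pair of libraries (the sum over segments of the smaller of the 2 usages) was 73.8% for the WT libraries of batch 1, 81.1% for Blimp1KO, 67.2% for the WT libraries of batch 2 and 73.1% for Xbp1KO. Between a knockout and WT of its batch it was 72.9% to 77.5% for Blimp1KO and 57.1% to 67.2% for Xbp1KO. The Blimp1KO values thus lay in the range of pairs from the same group, while the Xbp1KO values did not exceed the lowest of them, that of the WT libraries of their own batch. WT libraries of different batches shared 66.9% to 70.9%. Usage ranks correlated across the 102 segments with a Spearman rho of 0.855 to 0.935 within groups and 0.810 to 0.924 between knockout and WT, where segments share their library and are not independent.

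Igkv segments varied more between replicates than other genes. Replicate libraries differed by more than 2-fold in usage for 24 segments in batch 1 WT, 27 in Blimp1KO, 41 in batch 2 WT and 31 in Xbp1KO, of 102 each. Among all genes tested, 2.51% to 7.45% differed by that much in CPM between the same libraries. The median biological coefficient of variation fitted by edgeR was 0.408 for the members and 0.263 for all genes, and the fitted log2 fold changes had a median standard error of 0.587 against 0.292 in the Blimp1KO contrast.

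Near-identical segments were also read as sums, because a sum does not depend on how reads were split between the 2. A sum would still miss shared reads that were left uncounted or assigned to other members. Igkv1-110 and Igkv1-117 together took 8.20% and 8.47% of Igkv counts in batch 1 WT, 7.26% and 8.55% in Blimp1KO, 9.12% and 9.60% in batch 2 WT and 8.97% and 8.94% in Xbp1KO. The sums of all 4 groups lay close together, whereas the part of it counted for Igkv1-110 went from 32.8% and 31.7% in batch 2 WT to 56.3% and 65.0% in Xbp1KO. In batch 1 that part was 39.2% and 50.04% in WT and 47.6% and 42.3% in Blimp1KO. Igkv10-94 and Igkv10-95 together took 3.24% and 5.86% in batch 2 WT and 1.44% and 1.22% in Xbp1KO, so the lower usage in Xbp1KO is that of the sum as well. Igkv8-19 and Igkv8-28, at 97.53% identity, took 1.28% and 0.789% together in batch 2 WT and 3.96% and 7.13% in Xbp1KO, with 68.0% and 33.0% of the latter on Igkv8-19. Igkv5-43 and Igkv5-45, at 98.56% identity, differed within groups in the sum too, at 2.35% and 7.95% in batch 1 WT.

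**Figure D4:**
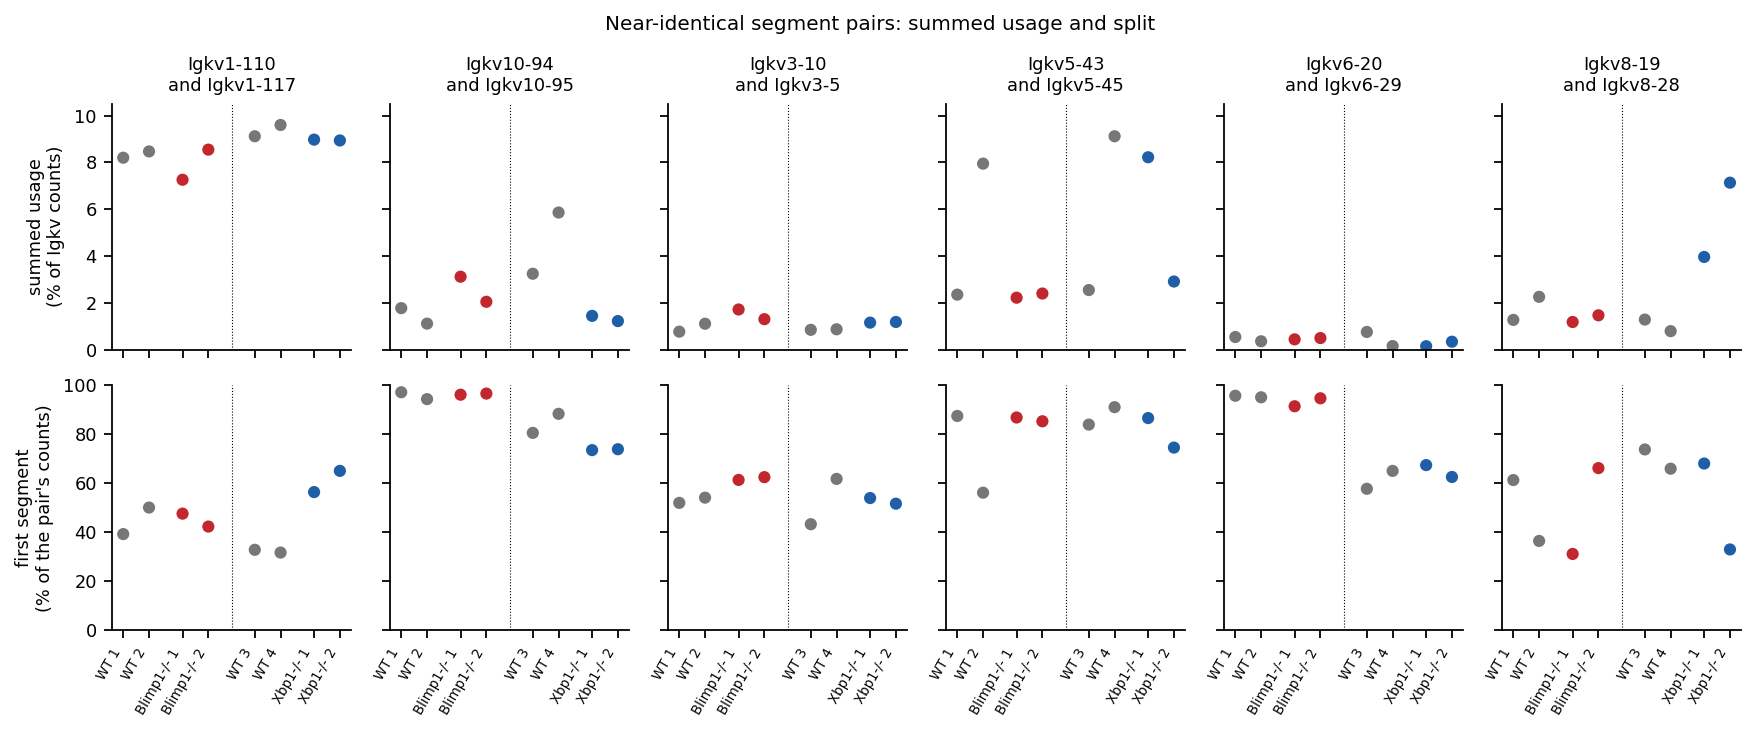
Pairs of near-identical segments, 6 in all: summed usage (upper row, percent of Igkv counts) and the percentage of the pair's counts on the segment named first (lower row); points are libraries. The sum of Igkv1-110 and Igkv1-117 stays between 7.26% and 9.60%, while the part on Igkv1-110 is highest in Xbp1KO, at 56.3% and 65.0%.

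In Blimp1KO, Igkv segments were lower than in batch 1 WT by the estimates, without any passing the test. The median CPM of the members was 978 and 1061 in batch 1 WT and 429 and 565 in Blimp1KO, while the median of all genes was 7.12 to 7.62 in every library. Of the 102, 96 had a log2 fold change below 0 and 6 above, with a median of -0.98, quartiles of -1.47 and -0.54, and a median over all 15073 genes tested of -0.01. None was called at an adjusted p below 0.05 by edgeR's quasi-likelihood test, under which 0.862% of all genes were called, 0.285% lower and 0.577% higher. Unadjusted p-values below 0.05 were found for 33 members, all lower (13.9% of all genes in either direction), and DESeq2 called 27, all lower (5.79% of the genes to which it gave an adjusted p). CPM of both Blimp1KO libraries lay below both WT libraries for 65 members (22.1% of all genes) and above them for 1 (20.9% of all genes). The sum of plasma cell markers, given above and with the J chain gene in it, was also lower in Blimp1KO. Its part in these values was not tested.

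The 3 members with the smallest p were Igkv3-7, Igkv8-24 and Igkv4-55. Igkv3-7 had 1928 and 1396 CPM in batch 1 WT and 327 and 463 CPM in Blimp1KO, a log2 fold change of -2.07 ± 0.36 (SE, n = 2 per group, edgeR adjusted p = 0.0574). Igkv8-24 had 2968 and 5454 CPM against 1153 and 1334 CPM, a log2 fold change of -1.76 ± 0.35 (edgeR adjusted p = 0.0806). Igkv4-55 had 9856 and 5788 CPM against 1039 and 1029 CPM, a log2 fold change of -2.92 ± 0.61 (edgeR adjusted p = 0.0901). In each of the 3 both Blimp1KO libraries lay below both WT libraries, which goes with their choice by p in this contrast. Leaving out Blimp1KO replicate 2 gave 3 called members and leaving out either Xbp1KO library gave 2, and the other fits with a library left out gave 0. These directions depend on how libraries are scaled: with total counts as library sizes, the median of all genes moved to 0.78, and 62 members were lower and 40 higher.

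In Xbp1KO, 29 of the 102 segments were called and all 29 fell relative to batch 2 WT. That is 28.4% of the members, against 7.7% of all genes called in either direction 5.06% called lower and 2.63% called higher. An unadjusted p below 0.05 was found for 64 members (23.6% of all genes), and DESeq2 called 57 (14.5% of the genes to which it gave an adjusted p). Median CPM of the members was 650 and 462 in batch 2 WT and 163 and 159 in Xbp1KO. The median log2 fold change was -1.92 (quartiles -2.68 and -0.99), against 0.08 over all genes, with 96 estimates below 0 and 6 above. Both Xbp1KO libraries lay below both WT libraries for 76 members (25.8% of all genes) and above them for 1 (31.8% of all genes). By family, the calls covered 3 of 3 Igkv10 segments, 5 of 9 in Igkv3, 10 of 28 in Igkv4, 3 of 9 in Igkv6, 3 of 11 in Igkv8, 2 of 10 in Igkv1, 1 each in Igkv5, Igkv13 and Igkv17 and 0 of 6 in Igkv12. Calls fell on 16 of the 51 segments below the median usage and on 13 of the 51 above it. The sum of 10 plasma cell markers, the J chain gene included, was lower in Xbp1KO as well, as given above. Its part in these calls was not tested. That sum does not speak for each marker. Xbp1 itself had a log2 fold change of -0.85 in Xbp1KO, while Prdm1 and Irf4 had estimates of 0.63 and 0.25, and none of these was called.

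**Figure D5:**
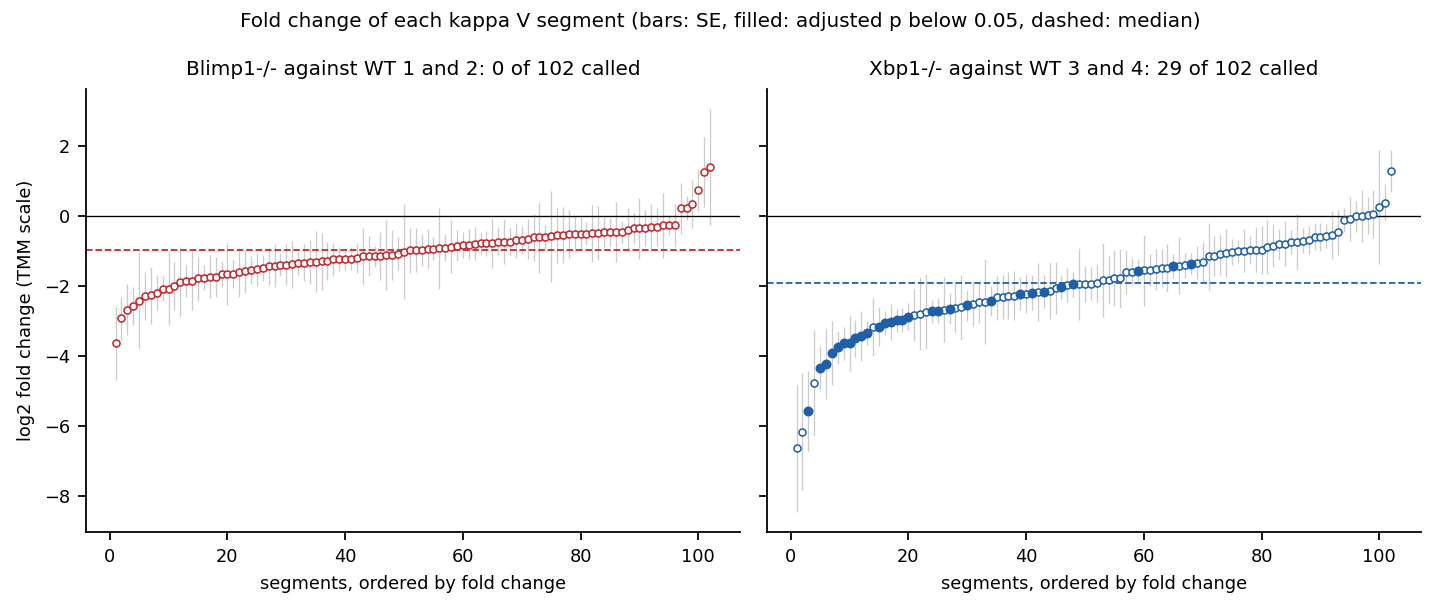
Log2 fold changes of the 102 segments in Blimp1KO (against batch 1 WT) and Xbp1KO (against batch 2 WT), sorted by value; bars are standard errors, filled points are called at an adjusted p below 0.05 and the dashed line is the median of the members. All 29 filled points are in the Xbp1KO panel and below 0.

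The 6 called segments with the lowest log2 fold changes were Igkv5-48, Igkv8-16, Igkv4-69, Igkv8-18, Igkv10-94 and Igkv8-23-1. Igkv10-94 had 3598 and 5804 CPM in batch 2 WT and 442 and 254 CPM in Xbp1KO, a log2 fold change of -3.76 ± 0.48 (SE, n = 2 per group, edgeR adjusted p = 0.0072). In batch 1 it had 3821 and 2211 CPM in WT and 2544 and 2186 CPM in Blimp1KO, so the Xbp1KO libraries were below all 6 others. Igkv8-23-1 had 62.2 and 70.9 CPM in batch 2 WT and 4.58 and 6.103 CPM in Xbp1KO (log2 fold change -3.64 ± 0.47, edgeR adjusted p = 0.00766). The low level in Xbp1KO was like that of batch 1, where WT had 6.53 and 7.25 CPM. Igkv5-48 had 14049 and 1484 CPM in batch 2 WT and 226 and 97.9 CPM in Xbp1KO (log2 fold change -5.58 ± 1.14, edgeR adjusted p = 0.0324). Without WT replicate 3 its log2 fold change was -3.20 and its edgeR adjusted p 0.0774. Igkv8-16, Igkv4-69 and Igkv8-18 had 3.71 to 16.6 CPM in Xbp1KO and were called in 2 to 4 of the 8 fits that left out a library. In batch 2 WT, Igkv4-69 had 302 and 80.9 CPM.

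The 6 called segments with the smallest changes were Igkv3-10, Igkv3-5, Igkv1-131, Igkv3-3, Igkv4-78 and Igkv6-23, with log2 fold changes of -1.36 to -2.17 and edgeR adjusted p-values of 0.022 to 0.049. Igkv3-10 and Igkv3-5 are 98.33% identical. Among the leading segments, Igkv1-117 fell from 8453 and 7365 to 1637 and 885 CPM (log2 fold change -2.65 ± 0.45, edgeR adjusted p = 0.0187), and Igkv10-96 from 5719 and 4357 to 745 and 628 CPM (-2.88 ± 0.40, edgeR adjusted p = 0.00923). Igkv15-103 stood apart from these, with 2758 and 2420 CPM in batch 2 WT and 2975 and 1823 CPM in Xbp1KO, a log2 fold change of -0.11 ± 0.34 (edgeR adjusted p = 0.883). Its CPM in the 2 groups overlapped while that of most members was lower, and this is the gain in usage described above. Igkv1-110 had 4132 and 3421 CPM against 2111 and 1642 CPM, a log2 fold change of -1.01 ± 0.32 that did not pass (edgeR adjusted p = 0.114). Igkv8-28 was the member with the highest estimate, at 466 and 303 CPM in batch 2 WT and 530 and 1351 CPM in Xbp1KO (1.29 ± 0.60, edgeR adjusted p = 0.254).

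The count of calls in Xbp1KO depended on single libraries. It dropped to 11 when WT replicate 3 was left out and to 17 for WT replicate 4. Leaving out Xbp1KO replicates 1 and 2 gave 14 and 10. Removing a library of batch 1 gave 22 to 36. Igkv10-94, Igkv10-95, Igkv17-127, Igkv4-73, Igkv4-79 and Igkv4-80 were called in all 8 of these fits, the last 4 being named here after their values were seen. Igkv10-95 fell from 876 and 778 CPM to 160 and 90.3 CPM (-2.72 ± 0.32, edgeR adjusted p = 0.00582). Igkv17-127 fell from 2181 and 1761 CPM to 280 and 190 CPM (-3.07 ± 0.35, edgeR adjusted p = 0.00512). Igkv4-73, which GENCODE lists as a pseudogene, had the smallest p of the members. It fell from 89.6 and 83.2 CPM to 10.03 and 6.93 CPM (-3.35 ± 0.34, edgeR adjusted p = 0.00361). As usage, Igkv4-73 took 0.0649% and 0.0740% in batch 2 WT and 0.0240% and 0.0245% in Xbp1KO. The Xbp1KO values were near those of batch 1 WT, 0.0263% and 0.0257%. These 6 segments were picked by their calls, so that their groups lie apart follows from the choice.

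The scaling of libraries bears on these directions too, because immunoglobulin genes took 69.7% and 64.8% of counts in batch 2 WT and 30.0% and 25.2% in Xbp1KO. Relative to total counts the median of all genes was 1.24 and that of the members -0.765, and 27 members were called, 23 lower and 4 higher (62.9% of all genes were called on this scale). With the summed Igkv count of each library as its size, so that a fold change compares usage, the median of the members was -0.08, 54 estimates were lower and 48 higher, and 77.0% of all genes were called because most moved against the Igkv sum. On that scale 33 members were called, 19 lower and 14 higher, and 17 of the 29 calls remained. With so many of all genes called, the adjustment over all genes corrects these member calls only weakly. No adjustment over the members alone was made, and this limit holds for the adjusted p-values on the usage scale below. Of the 29, 26 kept their direction, and Igkv1-131, Igkv3-10 and Igkv3-5 had estimates above 0.

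On the usage scale, Igkv15-103 was higher in Xbp1KO by 1.71 ± 0.33 on the log2 scale (SE, edgeR adjusted p = 0.00179), Igkv8-30 by 1.17 ± 0.30 (edgeR adjusted p = 0.0076) and Igkv1-110 by 0.85 ± 0.26 (edgeR adjusted p = 0.0158). Igkv8-28 had the largest such rise, 3.32 ± 0.73 (edgeR adjusted p = 0.00344), and Igkv8-19, Igkv8-26 and Igkv8-30 of its family were also called higher, while Igkv8-16, Igkv8-18 and Igkv8-23-1 of that family were called lower, by -2.48, -2.02 and -1.74. Igkv10-94 was lower by -1.99 ± 0.43 (edgeR adjusted p = 0.00317), and Igkv1-117 by -0.85 ± 0.27 (edgeR adjusted p = 0.0186). The same scale in Blimp1KO, where it called 51.6% of all genes, called 6 members. Igkv5-45, Igkv4-55, Igkv5-39 and Igkv4-70 were lower, by -2.54, -1.74, -1.55 and -1.44 on the log2 scale, and Igkv3-9 and Igkv6-14 were higher, by 1.95 and 1.36. The Igkv5-45 value rests on WT replicate 2, as its usage above shows. Between the WT groups of the 2 batches this scale called 12.1% of all genes and more members than in Blimp1KO. Of the segments named in this paragraph, Igkv3-9, Igkv8-26 and Igkv8-23-1 were called there, higher in batch 2 WT by 2.25, 1.68 and 4.09. The others named were not called between the WT groups.

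The difference between the Xbp1KO and Blimp1KO effects was tested for each segment. No member was called by edgeR (1.68% of all genes were, 1.17% lower and 0.511% higher), 25 had an unadjusted p below 0.05 (15.9% of all genes), and DESeq2 called 23 (8.23% of the genes to which it gave an adjusted p). The smallest p-values belonged to Igkv10-94, with a difference of -3.41 on the log2 scale (edgeR adjusted p = 0.0515), Igkv10-95, at -2.27 (edgeR adjusted p = 0.0570), and Igkv4-73, at -2.12 (edgeR adjusted p = 0.0680). The 3 had a lower value in the Xbp1KO contrast than in the Blimp1KO contrast. No segment was thus shown to respond differently to the 2 knockouts at the threshold used, and the fits with a library left out gave 0 to 4.

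WT libraries of the 2 batches gave a measure of how far unperturbed groups differ. Of the 102 members, 7 were called between them (2.81% of all genes), 5 lower (0.843% of all genes) and 2 higher (1.96% of all genes) in batch 2. Igkv10-95 had 120 and 137 CPM in batch 1 WT and 876 and 778 CPM in batch 2 WT, a log2 difference of 2.69 ± 0.32 (edgeR adjusted p = 0.0147). Xbp1KO, at 160 and 90.3 CPM, was closer to the 4 libraries of batch 1, which had 81.1 to 137 CPM, than to WT of its own batch. Igkv8-23-1 was higher in batch 2 by 3.27 ± 0.47 (edgeR adjusted p = 0.0221), and Igkv3-7 lower by -2.88 ± 0.38 (edgeR adjusted p = 0.0178). The other calls, Igkv4-54, Igkv1-132, Igkv4-74 and Igkv1-99, were lower in batch 2 by -2.11 to -3.26. These counts, too, rest on single libraries: 0 were called without WT replicate 1, 1 without any of WT replicates 2, 3 and 4, and 18 and 23 without Blimp1KO replicates 1 and 2.

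Other genes of the kappa pathway were read from lists chosen with earlier results of these data known. Beside the counts of every list stand the shares over all genes at an unadjusted p below 0.05. These were 13.9% in Blimp1KO, 23.6% in Xbp1KO and 15.9% in the difference of the effects. DESeq2 called 5.79%, 14.5% and 8.23% in that order, among genes with an adjusted p. Of 15 light chain genes outside the Igkv segments (Igkc, joining segments and lambda genes), none was called in Blimp1KO by edgeR (9 at an unadjusted p below 0.05, and 9 by DESeq2), with a median log2 fold change of -1.02. The smallest p-values were those of the lambda genes Iglj1, at -1.13 (edgeR adjusted p = 0.0571), and Iglc3, at -1.01 (edgeR adjusted p = 0.0882). In Xbp1KO 2 joining segments of the kappa locus fell. Igkj2 went from 1219 and 942 to 245 and 235 CPM (-2.17 ± 0.28, edgeR adjusted p = 0.00766), and Igkj4 changed by -1.39 ± 0.32 (edgeR adjusted p = 0.0456). Igkc had 190300 and 130000 CPM in batch 2 WT and 47410 and 30300 CPM in Xbp1KO, a log2 fold change of -2.04 (edgeR adjusted p = 0.073) that is close to the median of the V segments. The median of the 15 was -0.65. Between the WT groups, Igkj3 was higher in batch 2, with 2.88 and 3.74 CPM in batch 1 WT and 40.3 and 38.6 CPM in batch 2 WT (3.57 ± 0.39, edgeR adjusted p = 0.0115), and the lambda genes Iglc3, Iglj2 and Iglj3 were lower by -1.16, -2.63 and -2.04. The Xbp1KO libraries had 49.9 and 28.1 CPM of Igkj3, so its batch difference was there in the knockout as well. None of the 15 was called by edgeR in the difference of the effects (5 at an unadjusted p below 0.05, 4 by DESeq2).

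Of 16 tested V(D)J recombination genes, none was called by edgeR in either knockout, and DESeq2 called 1 in Blimp1KO and 0 in Xbp1KO. An unadjusted p below 0.05 was found for 2 of them in Blimp1KO and 3 in Xbp1KO (13.9% and 23.6% of all genes). The smallest p-values were those of Polm, a polymerase that fills in at V-J joins, at -0.89 (edgeR adjusted p = 0.0517), and Lig4, the ligase of the joining step, at -0.64 (edgeR adjusted p = 0.305), in Blimp1KO. In Xbp1KO they were those of Poll, a related polymerase, at -0.66 (edgeR adjusted p = 0.0868), and the recombinase gene Rag2, at 1.85 (edgeR adjusted p = 0.122). Among 18 factors of octamer and kappa enhancer elements, Spib, an ETS factor of B cells, rose in Blimp1KO from 5.78 and 7.22 to 157 and 197 CPM (4.77 ± 0.62, edgeR adjusted p = 0.0326). Irf8, which binds with ETS factors at such elements, fell in Xbp1KO from 46.2 and 41.8 to 22.4 and 26.2 CPM (-0.86 ± 0.20, edgeR adjusted p = 0.0483). In each contrast edgeR called none of the other 17 factors (4 of the 18 had an unadjusted p below 0.05 in each), and DESeq2 called Spib alone in Blimp1KO and Irf8, Pou2f2 and Tcf3 in Xbp1KO. Of 10 tested somatic hypermutation genes none was called by edgeR in either knockout (1 and 3 at an unadjusted p below 0.05, 0 and 1 by DESeq2). Apex1, a base excision repair gene, had estimates of 0.69 in Blimp1KO (edgeR adjusted p = 0.434) and 1.30 in Xbp1KO (edgeR adjusted p = 0.0679).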

How the data were processed

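RNA was sequenced from 8 libraries of sorted plasma cells. The deposited series table holds raw counts of reads per Entrez gene, per the file headers, as whole numbers without normalization. The submitters' processing notes name Subread, featureCounts and limma, without versions, and the builds GRCm38 and mm10. The strand and multi-mapping settings are not given in the sources used here. The deposited per-sample log2 FPKM files were not used, since they hold no Igkv segment.

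Symbols came from the RefSeq annotation of GRCm38.p6 by Entrez gene number, and 1904 of 27179 genes had none. Genes were tested in R 4.3.3 with edgeR 4.0.16 (filterByExpr at a minimum count of 10, 15073 genes, TMM, quasi-likelihood test, a mean for each of the 4 groups, 4 residual and 3.06 prior degrees of freedom). P-values were adjusted by Benjamini-Hochberg over all genes tested and called below 0.05. Each edgeR adjusted p in the text comes from this test, except where another fit is named. Values on the usage scale come from a refit with the summed Igkv count as library size, and values without a library from a refit without it. Each SE is the absolute log2 fold change over the square root of F in the fit concerned. The fit was tested on simulated data. Shares, usage and diversity were computed from the counts in Python 3.11.15 and compared by exact permutation over libraries (scipy 1.17.1).

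Segments named are the 10 of highest mean usage, in each contrast the 6 most and the 6 least lowered or raised calls by log2 fold change (or the 3 of smallest p), the 5 largest usage differences of each knockout, the 2 just inside the count threshold and the 1 outside it, and families with at least 5% of usage in any group. Of the gene lists, called members or the 2 of smallest p are named in each knockout. A gene that this rule selects is not reported here. The members, lists and rules were chosen with earlier results of these data known. Alternatives were DESeq2 1.42.0, other library scalings, no gene filter, each batch alone, pooled WT, length scaling, a replicate block and leaving out each library.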

Additional observations from a re-analysis of the deposited data

How the results depend on the processing

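In Blimp1KO the count of called segments was 0, and became 27 by DESeq2, 5 with total counts as library size, 6 with the summed Igkv count as library size, 17 without the gene filter and 0 to 3 without single libraries. The median log2 fold change of the segments became -0.21 with total counts and 0.14 with the Igkv sum, while that of all genes moved by over 0.1, to 0.78 and 1.16. In Xbp1KO the 29 calls became 57 by DESeq2, 59 without the gene filter and 10 to 36 without single libraries, and the median became -0.765 with total counts and -0.077 with the Igkv sum. On the Igkv sum, Igkv3-10, Igkv3-5 and Igkv1-131 turned to 0.45, 0.44 and 0.21. For the difference of the effects, 0 calls became 23 by DESeq2, 1 with RLE size factors, 1 with TMM outside immunoglobulin genes, 20 without the gene filter and 0 to 4 without single libraries. Between WT batches, 7 calls became 38 by DESeq2, 17 with total counts, 14 with the Igkv sum, 34 without the gene filter and 0 to 23 without single libraries. The Igkv share of immunoglobulin counts without the J chain gene differed by 14.2 percentage points in Xbp1KO, against 8.17 with it. With the Igkv sum, 51.6% of all genes were called in Blimp1KO and 12.1% between WT batches. DESeq2 called 5.79% in Blimp1KO, 14.5% in Xbp1KO and 8.23% in the difference of the effects, among genes with an adjusted p. Shares over all genes in the other settings are not given here, so these counts are not read as particular to the segments. The cause of the shifts in this section was not tested. With the replicate block in batch 1, the Blimp1KO fit gave 0 calls and a median of -0.999, and deviations of same-numbered libraries correlated at 0.218 over all genes and -0.0725 over the segments, with 2 pairs that share only a number. No paired analysis was possible because WT replicates 3 and 4 and the Xbp1KO replicates share no numbers. A minimum total of 800 counts changed no member. With 2 libraries a group, the spread between libraries, more than depth, limits these values.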
